A study of Homo sapiens with 9 samples.

Results

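The genes described here are 31 genes of cholesterol and lipid synthesis, from a list chosen with earlier results of these data known. They were measured in SW1783 cells, an established human glioma line, after transfection with a miR-376a* duplex or a control miRNA. The list holds 18 enzymes of sterol synthesis, 5 genes called SREBP regulators here, 5 enzymes of fatty acid and glycerolipid synthesis and 3 sterol transport proteins. The group of SREBP regulators holds SREBF1 and SREBF2, which encode the SREBP transcription factors, and SCAP, INSIG1 and INSIG2. A gene was represented by the brightest of the probe sets annotated to it alone, by mean over all arrays. Of the 31 genes, 29 had such a probe set (FDFT1 and CYP51A1 had none) and 28 were bright enough to be tested, among 12505 genes tested in all. TM7SF2, a sterol reductase, had signals between 6.70 and 26.6 and fell below the filter on dim probe sets, which left 15 sterol synthesis enzymes.

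Cells of 3 groups were compared 24 h after transfection at 50 nM: miR-376a*A, miR-376a*G, and a control miRNA whose sequence is not given in the sources used here. Each group has 3 arrays, which the labels call biological replicates. The cells of all groups carried a synthetic duplex delivered with a lipid reagent, so each comparison is between transfected cells of 1 line, and no untransfected cells were analysed here. The forms of miR-376a* differ at a base of the seed, the stretch near the 5′ end through which a miRNA recognises messenger RNAs: A is the unedited base and G takes the place of the inosine made by A-to-I editing. The arrays address how each form changes expression against the control, and whether the forms differ from each other. A signal is a mean over the cells of a culture, so fewer expressing cells and less RNA per cell cannot be told apart.

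Cells make cholesterol from acetyl-CoA through mevalonate, farnesyl diphosphate, squalene and lanosterol. The genes of this path are switched on together by SREBF2, and those of fatty acid synthesis mainly by SREBF1. Both proteins wait in the membrane of the endoplasmic reticulum bound to SCAP. When sterols are plentiful, INSIG1 and INSIG2 hold SCAP there; when sterols fall, SCAP carries SREBP to the Golgi, where proteases release its active part. INSIG1 is itself a target of SREBP. The arrays measure RNA and not cholesterol synthesis itself.

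The RefSeq sequence of the miRNA is shown first because its seed is the part in which the transfected forms differ. It is the mature 5p strand of MIR376A1 at chr14:101040788-101040809 (GRCh38.p14, plus strand), in the unedited form, with the seed (bases 2 to 8) in capitals. The sources used here give neither the sequence of the edited form nor the exact duplexes used.
hsa-miR-376a-5p: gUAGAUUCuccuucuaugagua

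Promoters of 3 genes follow to show some of the motifs counted below in place. The genes are INSIG1, the member with the largest difference from control, MVK, an early enzyme, and SREBF2, the transcription factor of the path. Each is the stretch of 250 bases before the RefSeq start site, written 5′ to 3′ on the gene's own strand (GRCh38.p14): INSIG1 at chr7:155297628-155297877, MVK at chr12:109573544-109573793 and SREBF2 at chr22:41832855-41833104, all on the plus strand. Capitals mark CCAAT or its reverse complement ATTGG in all 3, the E-box CACGTG in INSIG1, and, as the first run of capitals in SREBF2, the sterol regulatory element by which SREBP binds DNA.
INSIG1: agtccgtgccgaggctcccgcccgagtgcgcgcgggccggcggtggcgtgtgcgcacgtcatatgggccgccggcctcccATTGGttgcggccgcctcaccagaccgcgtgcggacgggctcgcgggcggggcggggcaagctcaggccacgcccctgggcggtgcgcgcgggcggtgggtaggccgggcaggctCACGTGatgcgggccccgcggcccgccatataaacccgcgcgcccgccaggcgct
MVK: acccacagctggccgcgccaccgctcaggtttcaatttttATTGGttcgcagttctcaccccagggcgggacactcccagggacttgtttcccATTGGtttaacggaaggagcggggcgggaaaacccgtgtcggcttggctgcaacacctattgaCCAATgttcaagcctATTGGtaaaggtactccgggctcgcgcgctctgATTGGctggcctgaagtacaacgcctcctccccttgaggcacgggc
SREBF2: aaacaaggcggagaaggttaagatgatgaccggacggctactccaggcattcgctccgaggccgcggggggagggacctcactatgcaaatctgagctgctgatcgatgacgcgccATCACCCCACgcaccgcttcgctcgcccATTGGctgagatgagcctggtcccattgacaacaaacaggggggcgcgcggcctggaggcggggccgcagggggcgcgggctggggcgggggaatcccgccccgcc

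RefSeq promoters were matched for 27 of the 31 genes, in 38 windows, since some genes have several start sites; ACAT2, FDFT1, SQLE and FASN were not among them. On either strand, CCAAT was found in 15 of 20 windows of the sterol synthesis enzymes and in 23 of 38 windows of all members (60.5%), against 32.0% of 35116 windows of the same length over all genes. The GC box GGGCGG, which is not marked above, was in 34 of 38 member windows (89.5%), against 42.6% of all windows, and CACGTG was in 5 of 38 (13.2%), against 6.34%. The letters of the sterol regulatory element, as marked in SREBF2, were in 1 member window, that of SREBF2 at 134 to 125 bases before the start, and in 12 of all 35116 windows (0.0342%). Only this exact run of letters was searched, so the other members may hold the element in other spellings. None of these motifs contains another. In MVK the letters CCAAT or ATTGG occur at 5 places, and in INSIG1 the E-box lies 55 to 50 bases before the start. These matches describe the windows only.

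The array of control replicate 1 was unlike the rest: its rank correlation with the array nearest to it was 0.941, against 0.969 to 0.970 for the other 8. Its signals for the 3′ probe sets of ACTB and GAPDH were 4973 and 5197, against 2356 to 2841 and 2664 to 3179 on the other arrays. The ratio of 3′ to 5′ signal of ACTB, a sign of RNA integrity, was 0.912 there and 0.861 to 0.910 elsewhere. Of 6 markers of the line, VIM (2218 to 4401) and CD44 (2116 to 3105) were bright, SOX2 was dim (10.3 to 29.5), and NES, GFAP and S100B were below the filter, with GFAP at 1.30 to 3.75. The astrocytic markers GFAP and S100B were thus not measured above the filter in a line labelled as glioma. Of 9 markers of other cell types, 6 were below the filter (PTPRC, CD14, EPCAM, CDH1, CDH5 and ALB) and PECAM1, RBFOX3 and SYT1 were above it. SYT1, a neuronal gene, fell by 1.10 with miR-376a*G (limma adjusted p = 0.00253), and whether this bears on the values below was not tested. Control replicate 1 enters every comparison with control, and also the comparison between the forms through the spread that the 3 groups share. The calls that change without it are therefore given beside the values from all arrays.

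INSIG1 was lower with both forms of miR-376a*. Its signal was 584, 589 and 551 on the miR-376a*A arrays, 655, 661 and 650 on the miR-376a*G arrays, and 955, 1078 and 1112 in the control arrays. Every treated array was below every control array, and every miR-376a*A array was below every miR-376a*G array. On the log2 scale INSIG1 fell by 0.87 with miR-376a*A (SE 0.10, 1.83-fold, limma adjusted p = 0.00113) and by 0.68 with miR-376a*G (SE 0.10, 1.61-fold, limma adjusted p = 0.00381). With replicate numbers fitted as a block, the limma adjusted p for miR-376a*G was 0.0145. The difference between the forms was -0.19 (SE 0.10) and did not pass the threshold of 0.05 (limma adjusted p = 0.580). All 3 probe sets of INSIG1 were lower, by -0.63, -0.64 and -0.87 with miR-376a*A and by -0.57, -0.53 and -0.68 with miR-376a*G. Leaving out any 1 of the 9 arrays kept the call of INSIG1 against control, with limma adjusted p between 7.29e-06 and 0.0104 for miR-376a*A and between 3.47e-05 and 0.0265 for miR-376a*G.

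The other SREBP regulators lay close to their control levels. INSIG2, the paralog that also binds SCAP, had signals of 184, 201 and 221 on the miR-376a*A arrays, 206, 184 and 208 on the miR-376a*G arrays and 157, 214 and 203 in control. SREBF1 was at 86.2, 81.8 and 82.9 on the miR-376a*A arrays, 70.7, 86.4 and 85.5 on the miR-376a*G arrays and 84.6, 90.2 and 84.6 in control. SREBF2 was at 87.4, 82.9 and 91.0, then 101, 71.7 and 73.3, and 79.5, 93.7 and 82.6 in control, in the same order of groups. The arrays of the 3 groups overlapped for each of these genes. SCAP, the escort protein, was at 205, 183 and 216 on the miR-376a*A arrays, 211, 226 and 224 on the miR-376a*G arrays and 224, 191 and 192 in control, again overlapping. The log2 differences of the 4 genes from control ran from -0.02 (SREBF1) to 0.07 (INSIG2) with miR-376a*A and from -0.07 (SREBF1) to 0.10 (SCAP) with miR-376a*G, with SE of 0.10 to 0.14. The other probe sets of SREBF2, nearly as bright, gave 0.22 and -0.26 with miR-376a*A and 0.28 and -0.17 with miR-376a*G, none past the threshold. None of the 4 passed limma's test in any comparison, with or without control replicate 1. SREBF2 holds the sterol regulatory element printed above.

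**Figure D1:**
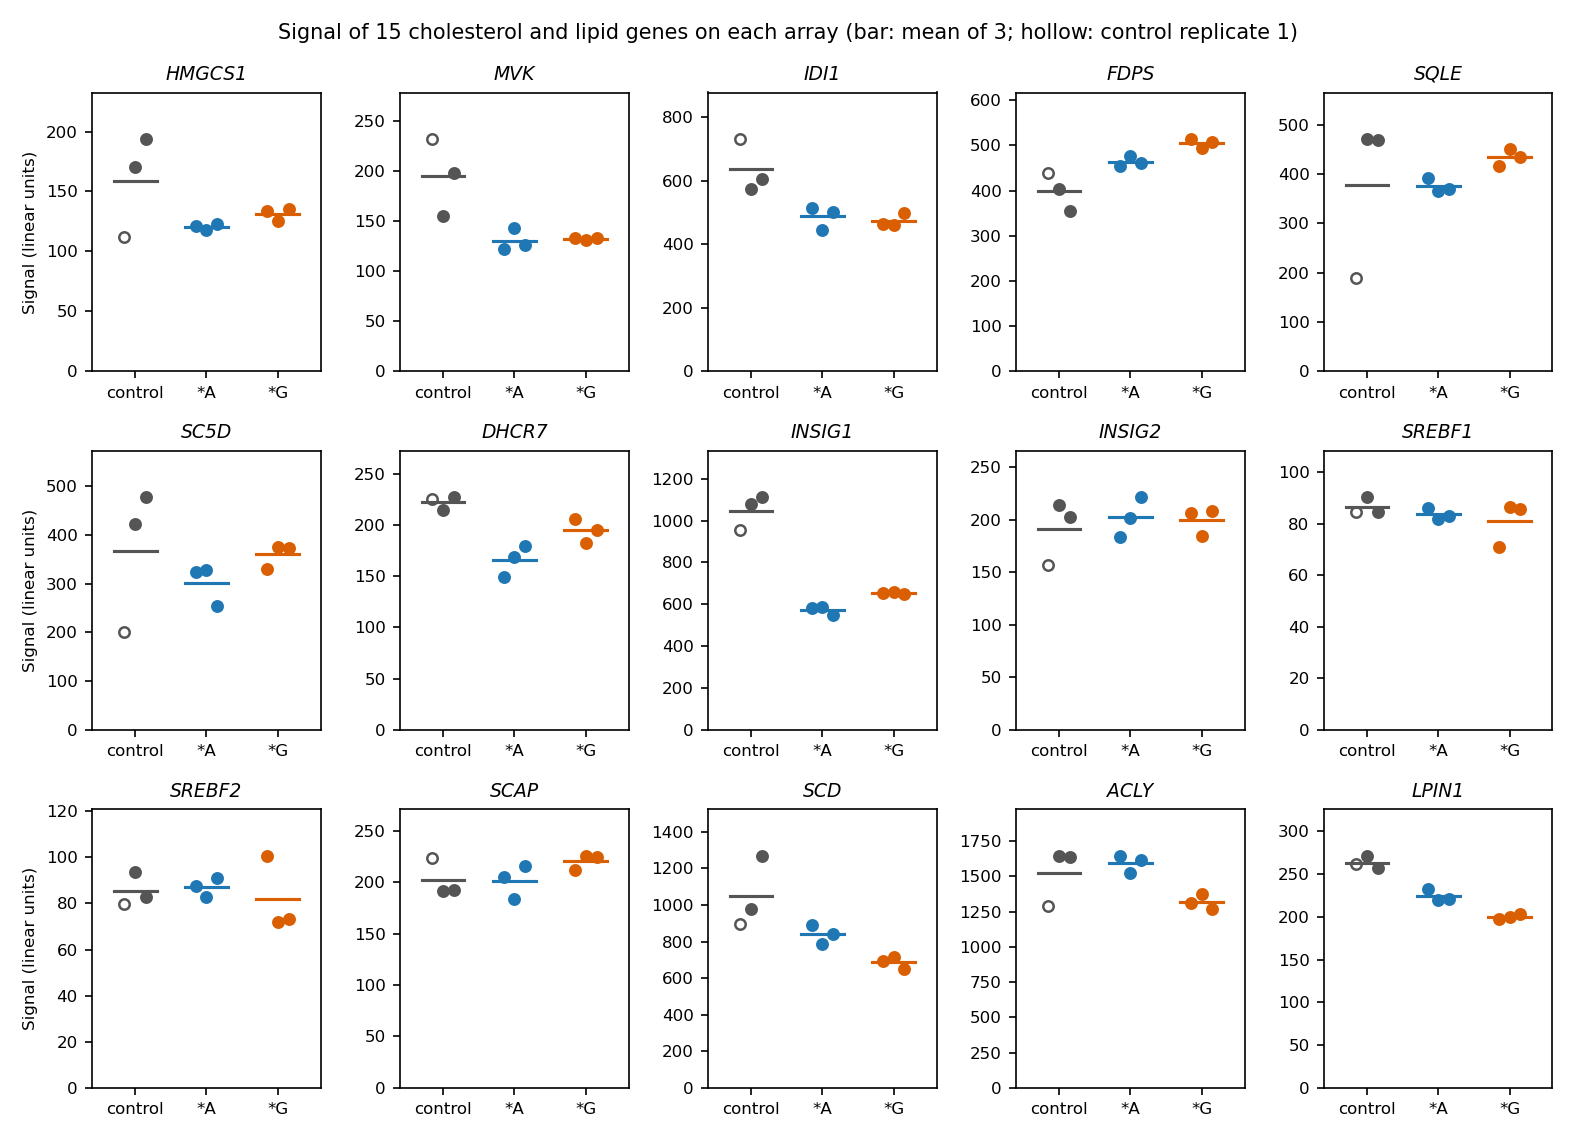
Deposited signal (linear units, axes from 0) of the 15 described members on each of the 9 arrays, with a bar at the mean of 3 arrays per group and control replicate 1 as a hollow point. The INSIG1 arrays separate into 955 to 1112 in control and 551 to 661 with either form, while for SQLE, SC5D and HMGCS1 the hollow point lies far below the other controls.

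Counted over the list, 1 of 28 members (3.57%) passed in limma's comparison of miR-376a*A with control, and 3.33% of all genes tested did. For miR-376a*G 3 of 28 passed (10.7%), and 4.62% of all genes. With replicate numbers fitted as a block, 1 of 28 passed for miR-376a*G (3.57%), and 2.88% of all genes. The members that passed were lower than control; of all genes 1.38% were called lower and 1.95% higher with miR-376a*A, and 2.12% and 2.50% with miR-376a*G. The share for miR-376a*A is near the background, and with 28 members a single gene is 3.57%. Because the list was chosen with earlier results of these data known, shares above those of all genes, here and below, describe the list and cannot serve as a test. All 3 treated arrays were below all controls for 6 members with miR-376a*A (8.95% of all genes) and for 7 with miR-376a*G (9.49%), and above them for 0 and 2 (11.5% and 12.2% of all genes). The median over the 28 members was -0.07 and -0.11, against 0.01 over all genes in both comparisons. Both comparisons use the same control arrays, so their values are given side by side and not as independent of each other. Between the forms, 0 of 28 members passed limma's test against 2.63% of all genes called, and 0 had an unadjusted p under 0.05, against 10.7% of all genes. That fit shares its spread with control replicate 1. Without that array 8 of 28 members had an unadjusted limma p under 0.05 between the forms (28.6%), against 22.8% of all genes. The arrays of the forms did not overlap for 10 members, 6 lower and 4 higher with miR-376a*A, where 15.4% of all genes were lower and 14.1% higher in this way.

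None of the 7 enzymes from acetyl-CoA to farnesyl diphosphate passed limma's test with all arrays. MVK, mevalonate kinase, had signals of 122, 143 and 126 on the miR-376a*A arrays, 133, 131 and 133 on the miR-376a*G arrays and 232, 155 and 198 in control. IDI1, the isomerase of isopentenyl diphosphate, was at 515, 447 and 501, then 465, 460 and 499, and 732, 574 and 605 in control. For both genes every treated array was below every control array. The log2 differences of MVK were -0.52 and -0.51 in the order miR-376a*A, miR-376a*G (SE 0.15 for each, limma adjusted p = 0.121 and 0.103). Those of IDI1 were -0.38 and -0.43 (SE 0.11 for each, limma adjusted p = 0.108 and 0.0558). Without control replicate 2, whose MVK and IDI1 values were the lowest of the controls, MVK passed with both forms (-0.68 and -0.67, limma adjusted p = 0.0349 and 0.0313) and IDI1 with miR-376a*G (-0.50, limma adjusted p = 0.0440). A second bright probe set of IDI1 gave -0.43 and -0.45, while its 2 dimmer ones gave 0.17 and -0.00 with miR-376a*A and 0.19 and -0.28 with miR-376a*G.

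HMGCS1, which makes HMG-CoA, was at 121, 118 and 123 on the miR-376a*A arrays, 133, 125 and 136 on the miR-376a*G arrays and 112, 170 and 194 in control. Control replicate 1 was the lowest of all 9 arrays for this gene and the other 2 controls the highest. FDPS, farnesyl diphosphate synthase, went the other way: 454, 477 and 461 on the miR-376a*A arrays, 514, 494 and 506 on the miR-376a*G arrays and 440, 403 and 354 in control. Its log2 differences were 0.21 (SE 0.11, limma adjusted p = 0.405) and 0.31 (SE 0.11, limma adjusted p = 0.146). The thiolase ACAT2, PMVK and MVD, the next kinase and the decarboxylase, lay between -0.17 and -0.07 in both comparisons. Of the 7 enzymes 6 were below 0 with each form, FDPS being the exception, where 48.7% and 48.6% of all genes were below 0.

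Among the 8 measured enzymes from squalene onwards, DHCR7, the last reductase of cholesterol synthesis, was at 150, 169 and 180 on the miR-376a*A arrays, 206, 183 and 196 on the miR-376a*G arrays and 226, 215 and 228 in control. All treated arrays were below the controls. Its log2 differences were -0.40 (SE 0.12, limma adjusted p = 0.104) and -0.20 (SE 0.12, limma adjusted p = 0.423), and a second probe set gave -0.37 and -0.23. SQLE, squalene epoxidase, was at 392, 366 and 370 on the miR-376a*A arrays, 416, 450 and 434 on the miR-376a*G arrays and 190, 471 and 470 in control. SC5D, a sterol desaturase, was at 324, 329 and 253, then 330, 375.9 and 374, and 200, 423 and 477 in control. In both genes control replicate 1 was far below the other controls and the treated arrays lay between.

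The remaining enzymes of this stretch did not pass either. MSMO1, a methylsterol oxidase, was at 816, 818 and 871 on the miR-376a*A arrays, 900, 875 and 886 on the miR-376a*G arrays and 447, 755 and 827 in control, with log2 differences of 0.30 and 0.40 (SE 0.18 for each). LSS, which closes the sterol rings, was at -0.04 and -0.28 (SE 0.13), HSD17B7 at -0.26 and -0.29 (SE 0.14) and NSDHL at -0.17 and -0.14 (SE 0.10), in the order miR-376a*A and miR-376a*G. EBP, a sterol isomerase, differed from control by -0.00 and -0.01 (SE 0.10).

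Over the 15 sterol synthesis enzymes together, 0 passed limma's test with either form against control, while 3 and 4 had an unadjusted p under 0.05 in the order miR-376a*A, miR-376a*G (of all genes 14.9% and 17.8% did). With miR-376a*A 12 of 15 were below 0 (80.0%) and the median log2 difference was -0.17, against 48.7% of all genes below 0 and a median of 0.01. With miR-376a*G 11 of 15 were below 0 (73.3%) and the median was -0.14, against 48.6% and 0.01. All treated arrays lay below all controls for 4 of the 15 enzymes with each form, against 8.95% and 9.49% of all genes. These were MVK, IDI1 and DHCR7 with both, NSDHL with miR-376a*A and LSS with miR-376a*G. The treated arrays lay above all controls for 0 enzymes with miR-376a*A (11.5% of all genes) and for 2 with miR-376a*G, FDPS and MSMO1 (12.2% of all genes). For the regulators, taken apart, the medians over 5 genes were -0.01 and -0.04, with INSIG1 the only one of them past the threshold.

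**Figure D2:**
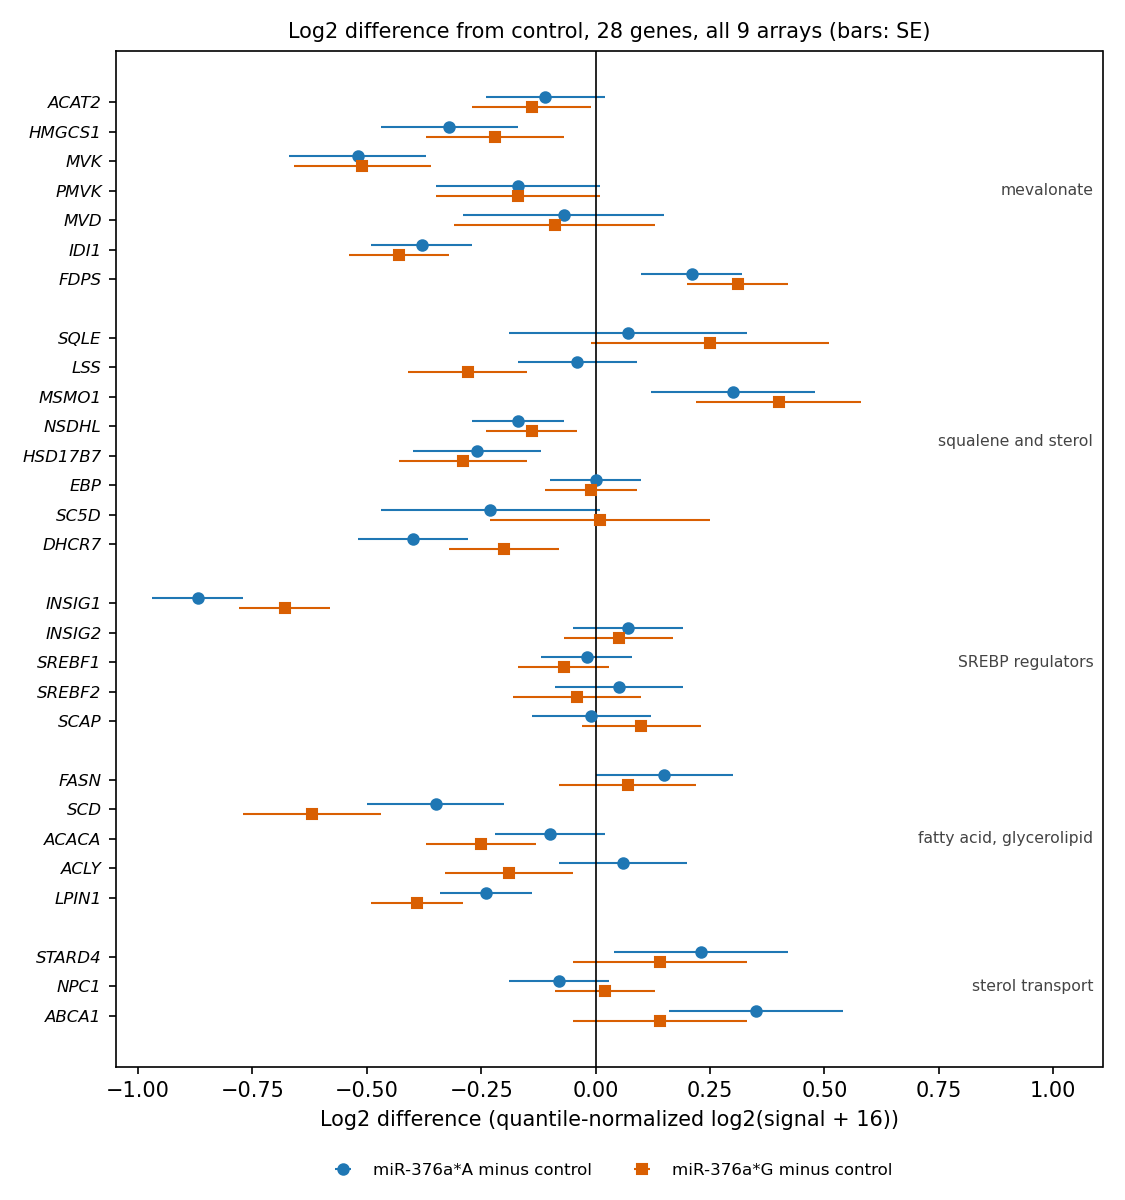
Log2 difference from control (x axis, on quantile-normalized log2(signal + 16)) of the 28 tested members, grouped by role, for miR-376a*A (circles) and miR-376a*G (squares), with bars of 1 SE. INSIG1 lies farthest from 0 (-0.87 and -0.68), MVK and IDI1 lie between -0.52 and -0.38, and FDPS and MSMO1 lie between 0.21 and 0.40.

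Of the 5 enzymes of fatty acid and glycerolipid synthesis, SCD and LPIN1 passed the test for miR-376a*G against control. SCD, the desaturase that makes monounsaturated fatty acids, was at 695, 715 and 651 with miR-376a*G, 890, 787 and 842 with miR-376a*A and 895, 978 and 1270 in control. LPIN1, a phosphatidate phosphatase, was at 198, 200 and 203 with miR-376a*G, 232, 219 and 220 with miR-376a*A and 262, 271 and 257 in control. In both genes the miR-376a*G arrays were the lowest 3 of the 9. Against control SCD fell by 0.62 with miR-376a*G (SE 0.15, 1.54-fold, limma adjusted p = 0.0412) and LPIN1 fell by 0.39 (SE 0.10, 1.31-fold, limma adjusted p = 0.0476). Same-numbered arrays of miR-376a*G and control deviated together slightly from their group means (r of 0.125 to 0.187). Those of miR-376a*A and control gave r of -0.335, 0.0315 and -0.361, so r values of this size do not show pairs. When replicate numbers were fitted as a block, the limma adjusted p of SCD and LPIN1 were 0.0779 and 0.113, and 1 member (INSIG1) passed in place of 3, against 2.88% of all genes in that fit.

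Both calls were close to the threshold in other respects. Leaving out any 1 of the 6 treated arrays or control replicate 2 ended them, with limma adjusted p of 0.0635 to 0.153 for SCD and 0.0877 to 0.176 for LPIN1. The other probe sets of SCD gave -0.26, -0.10 and 0.31 with miR-376a*G, and those of LPIN1 gave -0.43 and -0.14; averaged over its probe sets, SCD was at -0.17. With miR-376a*A the differences from control were -0.35 for SCD (SE 0.15, limma adjusted p = 0.298) and -0.24 for LPIN1 (SE 0.10, limma adjusted p = 0.276). Between the forms SCD was at 0.27 (SE 0.15, limma adjusted p = 0.601) and LPIN1 at 0.16 (SE 0.10, limma adjusted p = 0.702), so a difference between the forms was not shown for either gene.

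ACLY, which makes cytosolic acetyl-CoA from citrate, was at 1310, 1375 and 1268 with miR-376a*G, 1642, 1523 and 1614 with miR-376a*A and 1292, 1647 and 1636 in control. The miR-376a*A arrays were level with control replicates 2 and 3, and the miR-376a*G arrays with control replicate 1. Between the forms the log2 difference was 0.25 (SE 0.14, limma adjusted p = 0.629), and the 3 probe sets gave 0.24, 0.25 and 0.23. ACACA, the carboxylase that makes malonyl-CoA, was at -0.10 and -0.25 against control and FASN, fatty acid synthase, at 0.15 and 0.07 (limma adjusted p at least 0.317). In all 5 genes of this group miR-376a*A was above miR-376a*G, by 0.08 to 0.27, with 0 past the threshold, where 50.1% of all genes were above 0. The forms did not overlap for 3 of them, SCD, ACLY and LPIN1, where 14.1% of all genes were higher with miR-376a*A in this way.

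The sterol transport genes showed no difference past the threshold. ABCA1, the exporter that loads cholesterol onto lipoproteins, was at 505, 441 and 380 on the miR-376a*A arrays, 352, 404 and 391 on the miR-376a*G arrays and 223, 406 and 408 in control. STARD4, a cytosolic sterol carrier, was at 275, 300 and 230, then 254, 241 and 265, and 147, 251 and 292 in control. In both genes control replicate 1 was the lowest of all 9 arrays. The log2 differences with miR-376a*A went from 0.35 (SE 0.19) for ABCA1 and 0.23 (SE 0.19) for STARD4 to 0.11 and 0.00 without that array. With miR-376a*G they turned from 0.14 for both genes (SE 0.19) to -0.10 for ABCA1 and -0.09 for STARD4. NPC1, which moves cholesterol out of lysosomes, was at -0.08 and 0.02 (SE 0.11).

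Control replicate 1 differed from the other controls in both directions within the list. Its signal was 0.404 times the mean of control replicates 2 and 3 for SQLE, 0.445 for SC5D, 0.541 for STARD4, 0.547 for ABCA1, 0.565 for MSMO1 and 0.617 for HMGCS1. It was 1.31 times that mean for MVK, 1.38 for ACAT2 and 1.44 for PMVK. INSIG1 (0.872), DHCR7 (1.02) and LPIN1 (0.990) were closer to the other controls.

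Without that array 9 of 28 members passed in limma's comparison of miR-376a*A with control (32.1%), 8 lower and 1 higher, against 13.5% of all genes (6.51% lower and 7.00% higher). The lower ones were HMGCS1 (-0.49), MVK (-0.35), IDI1 (-0.28), SQLE (-0.31), SC5D (-0.56), DHCR7 (-0.35), INSIG1 (-0.96) and SCD (-0.47). FDPS was the higher one, at 0.30. The limma adjusted p ran from 7.29e-06 for INSIG1 to 0.0467 for IDI1, with MVK at 0.0459 and DHCR7 at 0.0408. SQLE changed direction with this array, from 0.07 (limma adjusted p = 0.943) with all arrays to -0.31 (limma adjusted p = 0.0221) without it. Yet the median over the 15 sterol synthesis enzymes moved from -0.17 to -0.10, with 8 of 15 below 0, since enzymes such as ACAT2 and PMVK went from -0.11 and -0.17 to 0.03 and 0.02.

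For miR-376a*G against control 8 of 28 members passed without control replicate 1 (28.6%), 7 lower and 1 higher, against 17.4% of all genes (8.68% lower and 8.68% higher). INSIG1 (-0.77), SCD (-0.74), HMGCS1 (-0.39), ACLY (-0.37), LPIN1 (-0.36), MVK (-0.34) and IDI1 (-0.32) were lower and FDPS (0.40) was higher, with limma adjusted p of 3.47e-05 to 0.0421. SQLE, SC5D and DHCR7 did not pass: without that array SQLE went from 0.25 to -0.13, SC5D from 0.01 to -0.32 and DHCR7 from -0.20 to -0.14. Between the forms 1 member passed without that array, ACLY, higher with miR-376a*A by 0.24 (SE 0.05, limma adjusted p = 0.0156), against 9.89% of all genes. With control replicate 1 left out the controls are 2 arrays, which still differed for some members (SCD 978 and 1270, MVK 155 and 198), and the share of all genes called was larger as well.

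**Figure D3:**
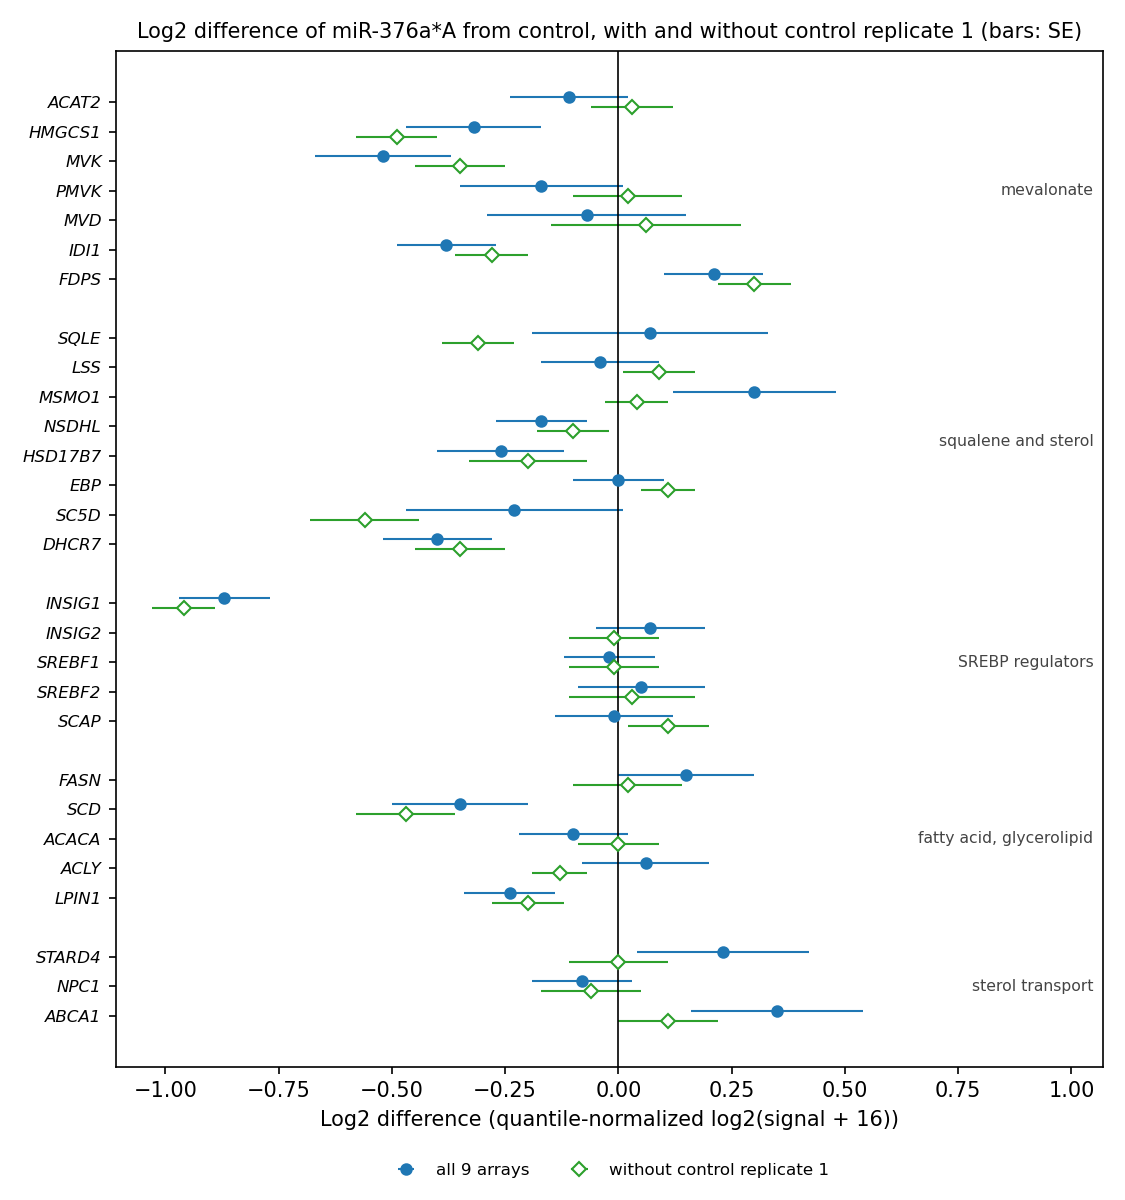
Log2 difference of miR-376a*A from control (x axis) for the 28 tested members with all 9 arrays (filled circles) and without control replicate 1 (open diamonds), with bars of 1 SE. SQLE moves from 0.07 to -0.31 and SC5D from -0.23 to -0.56, while ABCA1 moves from 0.35 to 0.11 and INSIG1 only from -0.87 to -0.96.

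Further genes of lipid metabolism from a second list were measured in the same fit, to place the members in their pathway. This list too was chosen with earlier results of these data known, so its shares called describe it and cannot serve as a test. The 37 genes tested of this list include SREBP targets, isoprenoid enzymes, proteins that control SREBP processing and proteins of sterol storage and export. With miR-376a*A 4 of 37 differed from control in limma's test (3 lower and 1 higher, 10.8%, against 3.33% of all genes). With miR-376a*G 3 did (1 lower and 2 higher, 8.11%, against 4.62%), and 4 differed between the forms (10.8%, against 2.63%), 3 of them lower and 1 higher with miR-376a*A. With the replicate block 2 of 37 passed for miR-376a*G (5.41%, against 2.88%). Without control replicate 1 the counts were 6, 8 and 5 of 36 (16.7%, 22.2% and 13.9%, against 13.5%, 17.4% and 9.89% of all genes). The medians with all arrays were -0.02, 0.01 and -0.04 in these comparisons. The genes called with all arrays, 6 over the 3 comparisons, were SOAT1, ELOVL5, ERLIN2, MBTPS2, LIPA and GPAM. Without control replicate 1, 4 more were called in at least 1 comparison. ELOVL6, a fatty acid elongase, was then at -0.29 and -0.44 in the order miR-376a*A, miR-376a*G (limma adjusted p = 0.0350 and 0.00348). MMAB, an enzyme of cobalamin metabolism, was at 0.34 and FABP5, a fatty acid binding protein, at 0.45 with miR-376a*G (limma adjusted p = 0.0205 and 0.0394). LBR, a sterol reductase of the nuclear envelope, was at -0.28 with miR-376a*G and at 0.25 between the forms (limma adjusted p = 0.0248 and 0.0307).

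SOAT1, the enzyme that esterifies cholesterol for storage, was at 169, 179 and 169 on the miR-376a*A arrays, 270, 279 and 232 on the miR-376a*G arrays and 387, 438 and 405 in control. The groups did not overlap, with miR-376a*A lowest and control highest. SOAT1 fell by 1.19 with miR-376a*A (SE 0.11, 2.28-fold, limma adjusted p = 2.31e-04) and by 0.66 with miR-376a*G (SE 0.11, 1.58-fold, limma adjusted p = 0.00611, and 0.0209 with the replicate block). Between the forms the difference was -0.53 (SE 0.11, limma adjusted p = 0.0277), a call that ended without any 1 of the miR-376a*A arrays or without miR-376a*G replicate 1 or 2 (limma adjusted p = 0.118 to 0.159). Of the other probe sets, a dimmer one (mean log2 6.14) gave -0.94 and -0.79 against control. The other, nearly as bright as that used (7.97 against 8.14), gave -0.09 and -0.33, neither past the threshold. Averaged over its probe sets, SOAT1 was at -0.74 (limma adjusted p = 0.0284), -0.60 (0.0574) and, between the forms, -0.15 (0.877).

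ELOVL5, which elongates polyunsaturated fatty acids, was at 790, 743 and 780 on the miR-376a*A arrays, 1720, 1645 and 1522 on the miR-376a*G arrays and 1602, 1734 and 1810 in control. It fell by 1.15 with miR-376a*A (SE 0.12, 2.21-fold, limma adjusted p = 5.86e-04) and was at -0.03 with miR-376a*G. The difference between the forms was -1.11 (SE 0.12, limma adjusted p = 9.02e-04). This rests on the brightest probe set: the other 3, all much dimmer, gave -0.21, -0.08 and -0.10 with miR-376a*A, and averaging the probe sets ended the call (limma adjusted p = 0.0909 against control and 0.121 between the forms).

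ERLIN2, a protein of the endoplasmic reticulum that takes part in sterol-regulated protein breakdown, was at 377, 343 and 315 on the miR-376a*A arrays, 669, 727 and 613 on the miR-376a*G arrays and 431, 803 and 762 in control. It fell by 0.90 with miR-376a*A (SE 0.20, limma adjusted p = 0.0361) and differed between the forms by -0.92 (SE 0.20, limma adjusted p = 0.0377). A second probe set gave -0.95 and -0.89 in these comparisons. The call against control was lost without any 1 array other than control replicate 1 (limma adjusted p = 0.0679 to 0.158) and the call between the forms without any 1 of the treated arrays (0.106 to 0.183). Without control replicate 1, whose value was the lowest of the controls, they had limma adjusted p = 1.97e-05 and 5.23e-05.

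MBTPS2, the site-2 protease that releases active SREBP, was at 1057, 1024 and 1012 on the miR-376a*A arrays, 573, 576 and 607 on the miR-376a*G arrays and 611, 800 and 914 in control. The controls lay between the forms. The difference of miR-376a*A from miR-376a*G was 0.80 (SE 0.13, 1.75-fold, limma adjusted p = 0.00941). Against control the differences were 0.39 (limma adjusted p = 0.184) and -0.42 (limma adjusted p = 0.116). Without control replicate 1 they were 0.22 (limma adjusted p = 0.0951) and -0.57, and the latter passed (limma adjusted p = 8.20e-04). Leaving out miR-376a*A replicate 1 or 2 or miR-376a*G replicate 1 or 2 ended the call between the forms, with limma adjusted p of 0.0536 to 0.0584. The other measured probe set of MBTPS2, which is dimmer, gave 0.21 between the forms.

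LIPA, the lysosomal lipase that frees cholesterol from its esters, was at 1166, 1119 and 1090 on the miR-376a*A arrays, 1128, 1103 and 1193 on the miR-376a*G arrays and 569, 648 and 703 in control. It rose by 0.78 with miR-376a*A (SE 0.09, 1.71-fold, limma adjusted p = 0.00120). With miR-376a*G it rose by 0.83 (SE 0.09, 1.78-fold, limma adjusted p = 6.97e-04, and 0.00570 with the replicate block). The forms differed by -0.05 (SE 0.09). GPAM, which starts glycerolipid synthesis, was at 283, 279 and 231 on the miR-376a*A arrays, 260, 261 and 336 on the miR-376a*G arrays and 154, 176 and 208 in control. GPAM rose by 0.60 with miR-376a*G (SE 0.13, limma adjusted p = 0.0312, and 0.0745 with the replicate block) and was at 0.51 with miR-376a*A (SE 0.13, limma adjusted p = 0.0747). The latter passed without control replicate 1 (0.47, limma adjusted p = 0.0311), with probe sets averaged (0.58, 0.0340) and with array weights (0.55, 0.00249). The miR-376a*G call was lost without any 1 treated array or without control replicate 2 (limma adjusted p = 0.0502 to 0.134), and its second probe set gave 0.77 with miR-376a*G and 0.65 with miR-376a*A.

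**Figure D4:**
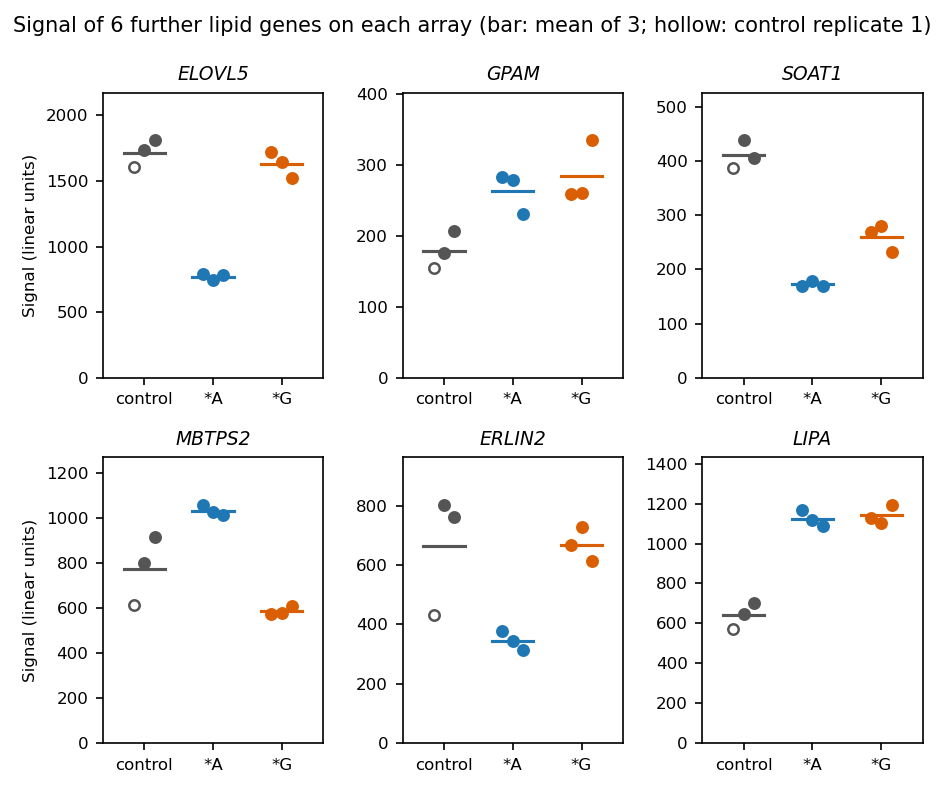
Deposited signal (linear units, axes from 0) of the 6 further lipid genes called in any comparison with all 9 arrays, on each array, with a bar at the mean of 3 arrays per group and control replicate 1 as a hollow point. ELOVL5 and ERLIN2 are lowest with miR-376a*A (743 to 790 and 315 to 377), SOAT1 is ordered miR-376a*A, miR-376a*G, control, and LIPA lies at 1090 to 1193 with either form against 569 to 703 in control.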

How the data were processed

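Expression was measured in 9 samples on Affymetrix arrays of 54675 probe sets, 3 per group; the submitters' processing notes name GCOS 1.4.0.036. The authors deposited linear signal intensity values scaled to a trimmed mean of 100.01 per array; the summarisation method was not given in the sources used here. Scaling hides changes common to most transcripts, and the number of arrays limits the precision.

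Intensities were turned into log2(signal + 16) and quantile normalized. Probe sets with 1 gene symbol were named from the platform annotation, those with a mean under the 50th percentile (5.17) were left out, and the brightest per gene was kept. Fold changes refer to this scale and understate changes of dim genes. The 3 groups were fitted together with limma 3.58.1 in R 4.3.3 (lmFit, eBayes with trend), adjusted by Benjamini-Hochberg over 12505 genes, threshold 0.05; SE is of the log2 difference, and group overlap was read on normalized values. The procedure was tested on simulated data.

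Members and lists were chosen with earlier results of these data known. Arrays were described for members past the threshold with all arrays or without control replicate 1, for the SREBP regulators, and for further listed genes past the threshold. Replicate numbers of miR-376a*G and control count as pairs (deviations of same-numbered arrays correlated with r of 0.125 to 0.187, above the limit of 0.1; the labels name no shared culture); those of the other comparisons do not. An exact test of 3 against 3 arrays cannot go below p = 0.1, so none was used. Alternatives were the pseudocount, normalization, filter, probe set choice, arrays fitted, array weights, trend, block and each array left out.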

Additional observations from a re-analysis of the deposited data

How the results depend on the processing

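The calls of INSIG1 against control with both forms, LIPA with both forms and SOAT1 with miR-376a*A were kept in all 20 alternatives. The count of members called for miR-376a*A against control was 1 with all arrays and 10 with array weights; for miR-376a*G it was 3, and 7 with array weights, 4 with the filter at the 75th percentile (IDI1 added, adjusted p = 0.0466), 2 (INSIG1 and LPIN1) without a filter and without an intensity trend, 2 (INSIG1 and ACLY) with probe sets averaged, and 1 (INSIG1) with arrays centred on their medians, with only the 6 arrays compared and with the replicate block. Between the forms it was 0, and 2 with only the 6 arrays compared (SCD and ACLY) and with array weights (INSIG1 and ACLY). Leaving out 1 array in turn gave counts of 1 to 9, 1 to 8 and 0 to 1 in these comparisons, the highest without control replicate 1, and enzyme medians of -0.20 to -0.09, -0.24 to -0.12 and -0.07 to -0.00. Against control the enzyme median was below 0 in all 20 alternatives with each form. SQLE with miR-376a*A against control turned from 0.07 to -0.07 with probe sets averaged, -0.30 with array weights and -0.31 without control replicate 1 (-0.31 to 0.26 leaving out 1 array). Pairs by replicate number were not shown in any comparison. The replicate block left 1 member called for miR-376a*A against control and 0 between the forms. For ERLIN2 it gave limma adjusted p of 0.0661 for miR-376a*A against control and 0.0714 between the forms. For SOAT1 between the forms the limma adjusted p was 0.0703. SOAT1 with miR-376a*G was not called with only the 6 arrays compared (0.0541). The median of all genes lay between -0.01 and 0.06 in all settings. Depth is set by signal over background, which the deposited values do not give.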

Other observations

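Genes of the interferon response, which double-stranded RNA can switch on, were measured because every group received a duplex. Of 9 such genes 0 passed limma's test in any comparison. At an unadjusted p under 0.05 there were 1, 1 and 0 for miR-376a*A against control, miR-376a*G against control and between the forms (11.1%, 11.1% and 0%, against 14.9%, 17.8% and 10.7% of all genes). Their medians were 0.18, 0.27 and -0.05 on the log2 scale. Against control 9 of 9 were above 0 with miR-376a*A and 8 of 9 with miR-376a*G, where 51.3% and 51.4% of all genes were. The signal of miR-376a*A replicate 3 was the highest of its group for each of these genes except IFIT2. MX1 was at 129, 95.7 and 473 on the miR-376a*A arrays and at 213, 104 and 126 in control. OAS1 was at 39.4, 37.4 and 96.6, and at 68.1, 48.1 and 29.9 in control. How far the miR-376a*A differences rest on that array was not tested. No untransfected cells were compared here, so the response common to all duplexes was not measured.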
